A study of Mus musculus with 3 samples.

Results

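Among the cells of P7 *Eed*cKO cerebella was a small set chosen for transcripts of *Barhl1*, *Mab21l2* and 3 further genes and for the absence of a few transcripts of the cell cycle and of later granule neurons. These Barhl1/Mab21l2 cells were the kept cells with at least 2 summed UMIs of *Mab21l2*, *Barhl1*, *Mfap4*, *Chodl* and *Ebf3*, and with 0 UMIs over 13 excluded genes, so they were chosen by the measured counts of these 18 genes. A UMI (unique molecular identifier) is a tag that lets copies of the same captured transcript be counted once, and kept cells had at least 500 UMIs, at most 10% of them mitochondrial. The excluded genes were *Mki67*, *Top2a*, *Nusap1*, *Ube2c*, *Hmmr*, *Mcm4* and *Mcm6* of cycling cells, *Cntn2* and *Adcyap1* of differentiating granule neurons, and *Pax2*, *Gad1*, *Olig1* and *Actc1* of interneurons, oligodendrocyte lineage cells and muscle. In all, 137 of 2408 kept cells met the rule.

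The cells came from 1 side of the cerebellum of 3 mice of the genotype Math1-Cre/Eed fl/fl at postnatal day 7, untreated, with 1 Drop-seq library per mouse. Math1-Cre is driven by the *Atoh1* promoter, so *Eed*, a core subunit of the PRC2 complex, is deleted in the *Atoh1* lineage, while other cells of the cerebellum keep the gene. All groups compared are cells of these same animals, and cells of intact animals were not analysed here. Differences below are thus differences between cells of *Eed*cKO cerebella, and the effect of the deletion was not tested. Where a group includes cells that keep the gene, deletion and cell type cannot be told apart.

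Cerebellar granule neuron progenitors (CGNPs) arise from *Atoh1*-positive cells of the rhombic lip and divide in the outer external granule layer under the influence of Sonic hedgehog (SHH). As they leave the cell cycle they move to the inner external granule layer, switch on neuronal transcription factors and cytoskeletal genes, extend axons and then migrate inward. PRC2 methylates histone H3 at lysine 27 and keeps developmental genes silent, among them the *Hox* genes, which set position along the body axis and are normally off in the cerebellum.

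Promoters of 3 genes that recur below are shown first, because *Hoxb8* and *Btg2* were higher in the Barhl1/Mab21l2 cells than in the remaining cells, and the level of *Hoxa9* lay between those of cycling and of later cells. Each is the 250 bases before the RefSeq start (build GRCm38.p6), 5′ to 3′ on the gene's strand, with CG dinucleotides in capitals, as PRC2 is found mostly at CpG-rich promoters. *Hoxb8* is at chr11:96281655-96281904 on the plus strand, next to the gene itself. *Hoxa9* is at chr6:52227371-52227620 on the minus strand, between exons of a longer GENCODE M21 model of the gene. *Btg2* is at chr1:134079156-134079405 on the minus strand, upstream of the gene. None of these windows overlapped a GENCODE exon.
Hoxb8: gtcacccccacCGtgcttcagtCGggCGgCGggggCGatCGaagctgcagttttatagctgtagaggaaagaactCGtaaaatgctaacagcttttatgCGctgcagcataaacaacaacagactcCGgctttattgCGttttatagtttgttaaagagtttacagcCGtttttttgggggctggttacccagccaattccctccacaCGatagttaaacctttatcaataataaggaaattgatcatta
Hoxa9: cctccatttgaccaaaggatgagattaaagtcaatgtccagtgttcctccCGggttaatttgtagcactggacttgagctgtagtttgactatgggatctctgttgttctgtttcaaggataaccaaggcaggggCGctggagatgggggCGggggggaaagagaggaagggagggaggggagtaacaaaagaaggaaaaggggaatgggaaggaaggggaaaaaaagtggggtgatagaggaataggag
Btg2: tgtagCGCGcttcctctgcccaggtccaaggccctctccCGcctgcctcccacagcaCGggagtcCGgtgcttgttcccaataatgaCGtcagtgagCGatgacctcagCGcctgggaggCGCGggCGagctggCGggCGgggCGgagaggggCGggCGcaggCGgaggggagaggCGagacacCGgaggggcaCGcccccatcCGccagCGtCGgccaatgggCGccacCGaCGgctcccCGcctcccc
The windows held 12 (*Hoxb8*), 3 (*Hoxa9*) and 27 (*Btg2*) CG dinucleotides, counted on the strand shown. Of 32851 RefSeq promoter windows of this length, 33.5% held at least 12, 71.0% at least 3 and 8.56% at least 27, against a median of 6. These sequences describe the genes and carry no measurement of PRC2 binding.

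The cells numbered 61, 37 and 39 in mice 1, 2 and 3. They were 6.53% of the kept cells in mouse 1 (exact 95% binomial interval 5.03 to 8.31), 6.65% in mouse 2 (4.73 to 9.06) and 4.25% in mouse 3 (3.04 to 5.76), or 5.81% ± 1.36 (SD, n = 3 mice). Together they held 60134, 34159 and 60819 UMIs. The median cell had 882, 834 and 1517 UMIs, against 940, 872 and 1418 in the remaining kept cells. No barcode was shared between the libraries, and intervals cover counting error only.

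The rule fixed the levels of its own genes, which are given as a description only. *Barhl1*, a homeobox gene of the granule lineage, was seen in 72 of the 137 cells, *Mfap4*, which encodes an extracellular matrix protein, in 63 and *Mab21l2* in 57. *Ebf3*, a transcription factor of newly formed neurons, was seen in 40 and *Chodl* in 14. Only 25 cells had UMIs of both *Barhl1* and *Mab21l2*, 52 cells had UMIs of 1 of the 5 genes, 63 of 2 and 22 of 3 or more. The summed UMIs were exactly 2 in 72 cells, so most members sat on the lower limit of the rule. Of the 481 kept cells with 2 or more summed UMIs, 265 also had a UMI of a cycling gene and 118 one of *Cntn2* or *Adcyap1*, so these 5 genes were by no means limited to the cells described here.

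**Figure D1:**
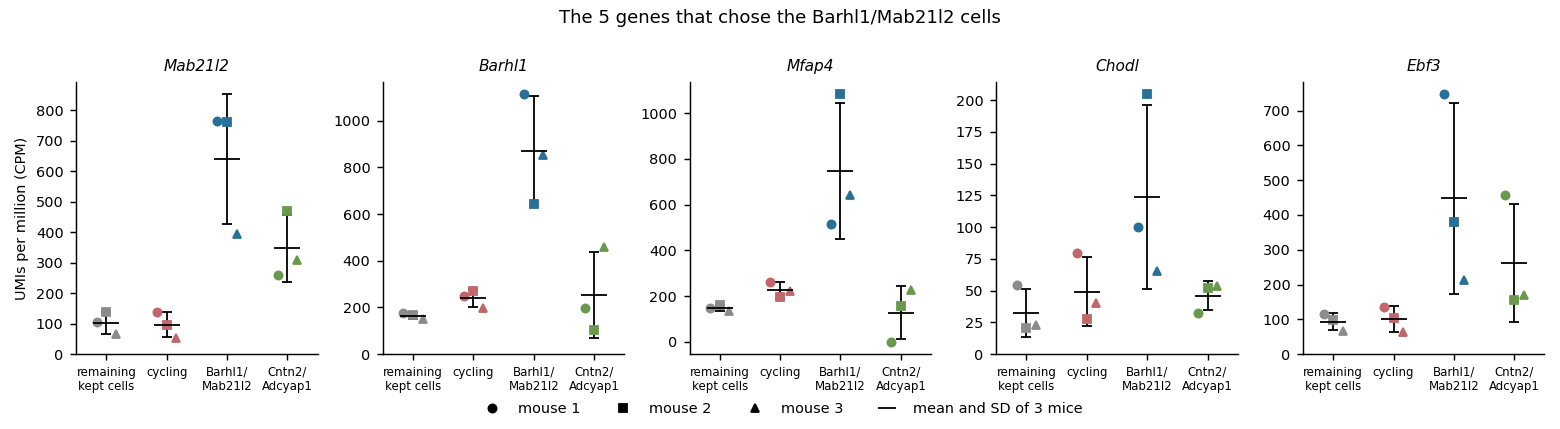
Level of the 5 marker genes, in UMIs per 1000000 UMIs (CPM, vertical axes), in the remaining kept cells, cycling cells, Barhl1/Mab21l2 cells and Cntn2/Adcyap1 cells. Symbols are mice, bars the mean and SD of 3 mice. The Barhl1/Mab21l2 cells stand highest because the rule chose them so, while *Mab21l2* was also carried by the Cntn2/Adcyap1 cells, at 261, 468 and 310 CPM.

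Each of the 5 genes was left out of the rule in turn and its level read in the cells that the other 4 genes chose. *Mab21l2* then stood at 386, 366 and 267 CPM against 130, 165 and 71.7 CPM in the other kept cells of mice 1, 2 and 3. *Barhl1* (619, 234 and 687 against 213, 193 and 164 CPM) and *Mfap4* (256, 877 and 458 against 163, 191 and 146 CPM) were likewise higher in every mouse. *Ebf3* was higher in mice 1 and 3 but lower in mouse 2 (71.3 against 117 CPM), and *Chodl* was higher in mice 2 and 3 only. The left-out values rest on 2 to 27 UMIs per mouse. The other kept cells include glial, vascular and further cells outside the granule lineage. Whether the 5 genes mark the same cells within that lineage was thus not tested.

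Markers of the granule lineage matched the label. At least 2 UMIs over *Atoh1*, *Pax6*, *Zic1*, *Zic2*, *Zic4*, *Neurod1*, *Nhlh1*, *Nhlh2* and *Rbfox3* were found in 117 of the 137 cells, 51 of 61, 29 of 37 and 37 of 39 by mouse. *Neurod1*, a transcription factor of differentiating granule cells, had a UMI in 83 cells, *Zic1* in 81, *Pax6* in 46 and *Atoh1*, the progenitor factor, in 14. At least 1 *Neurod1* UMI was seen in 62.1% ± 11.2 of the cells, against 11.8% ± 6.76 of 118 reference cells with at least 5 UMIs of endothelial, myeloid or oligodendrocyte markers, which should lack it. The median depth was 909 UMIs in the former and 1444 in the latter, and after thinning every cell to 500 UMIs the shares were 44.3% and 3.55%. The trait was not particular to these cells. The share was 40.0% in the remaining cells, and 36.4% in the cycling and 71.1% in the Cntn2/Adcyap1 cells described below. After thinning these shares were 27.9%, 20.3% and 57.7%. The word postmitotic in the label rests on absent UMIs: at this depth, progenitors in G1 and cells that have left the cycle cannot be told apart by the rule.

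Markers of other cell types were seen in few of the cells. Endothelial, myeloid and ependymal or choroid plexus markers reached 2 UMIs in no cell, Purkinje and pericyte markers in 1 each, unipolar brush cell and oligodendrocyte markers in 3 each, and interneuron markers in 10. Astrocyte and Bergmann glia markers reached 2 UMIs in 11 cells, hemoglobin and other erythroid markers in 8 and myoid markers in 4. Markers of the glutamatergic cerebellar nuclei reached 2 UMIs in 8 cells and summed to 299, 176 and 280 CPM, against 107, 105 and 161 CPM in the remaining cells. Most of this was *Slc17a6*, at 249, 176 and 263 CPM, which granule neurons also use. A single cell of mouse 3 held 153 UMIs of *Dcn*, *Lum*, *Col1a1*, *Col1a2* and *Col3a1* among its 4003 UMIs. No other member had more than 1 UMI of these fibroblast genes. Vascular fibroblast markers, which add *Igf2* to these, reached 2 UMIs in 6 cells, all of mouse 3, and summed to 3272 CPM there against 49.9 and 87.8 CPM in mice 1 and 2. The single cell was chosen with 2 *Mfap4* UMIs. Leaving it out changed no call of the genes named below, except that *Zfp36l1* then had too few counts for its test. Doublets were not called, and a cell that shared a droplet with another would be counted as 1.

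*Eed* itself had 1, 2 and 1 UMIs in the Barhl1/Mab21l2 cells, or 16.6, 58.5 and 16.4 CPM, against 45.4, 29.5 and 35.2 CPM in the remaining cells. The library reads 3′ ends, so these counts do not check the deletion, and at 4 UMIs a difference was not detectable. *Ezh2*, the methyltransferase of PRC2, stood at 565, 322 and 345 CPM against 455, 426 and 385 CPM in the remaining cells and overlapped them (log2 fold change -0.09, SE 0.26, adjusted p = 0.97 in edgeR's quasi-likelihood test). Of 12 PRC2 subunit genes, 8 were tested in this comparison and none was called, where 1.18% of all genes tested were, so that this count says little about the subunits.

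The first comparison asked which other genes set the Barhl1/Mab21l2 cells apart from all remaining kept cells. UMIs were summed per mouse and group, giving 3 sums against 3, and the 18 genes of the rule were left out. Of 5851 genes tested with edgeR, 69 (1.18%) had a Benjamini-Hochberg adjusted p under 0.05, with 4 (0.0684%) higher and 65 (1.11%) lower in the Barhl1/Mab21l2 cells. The 4 higher genes were *Hoxb8*, *Neurod1*, *Tshz2* and *Btg2*. The count filter took a gene into the test at about 33.2 CPM in 3 sums. Below, a group is said to reach the filter level where all 3 of its sums did. Where 1 group alone reached it, the filter favored the direction of the call. Where no sum of the other group was at the level, the filter largely set that direction. The 4 higher genes reached the level in both groups, but 54 of the 65 lower genes in the remaining cells alone.

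*Hoxb8*, a gene of the posterior body axis, stood at 266, 205 and 164 CPM in the Barhl1/Mab21l2 cells of mice 1, 2 and 3 and at 63.1, 66.4 and 45.9 CPM in the remaining cells. Every mouse showed the rise and the groups did not overlap (log2 fold change 1.80, SE 0.36, adjusted p = 0.015). The level rested on 33 UMIs, 16, 7 and 10 by mouse. A *Hoxb8* UMI was seen in 18.1% ± 2.97 of the Barhl1/Mab21l2 cells and 5.86% ± 0.353 of the remaining cells, and in 1.89% ± 1.85 of the reference cells, and at 500 UMIs per cell the shares were 12.6%, 3.20% and 1.89%.

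*Neurod1* stood at 1746, 2693 and 2137 CPM against 793, 1208 and 1072 CPM in the remaining cells (log2 fold change 0.99, SE 0.22, adjusted p = 0.031). *Btg2*, an antiproliferative gene that neural progenitors switch on before their last division, was at 233, 293 and 362 CPM against 119, 131 and 93.7 CPM (log2 fold change 1.30, SE 0.30, adjusted p = 0.045). *Tshz2*, a zinc finger transcription factor, was at 283, 439 and 263 CPM against 88.8, 149 and 101 CPM (log2 fold change 1.42, SE 0.32, adjusted p = 0.039). For all these genes the lowest mouse of the Barhl1/Mab21l2 cells exceeded the highest of the remaining cells.

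Of the 27 granule lineage transcription factors tested, *Neurod1* alone was called higher and none lower, with a median log2 fold change of 0.37 against -0.06 over all genes tested. *Pax6* had 482, 556 and 427 CPM against 246, 345 and 238 CPM without overlap, but an adjusted p of 0.29. Both sums of a mouse come from 1 library, and with the mouse as a block 166 genes were called, 28 (0.479%) higher and 138 (2.36%) lower. *Pax6* (adjusted p = 0.034), *Zic4* (0.0039), *Slc17a6* (0.023), *Map1b* (0.028), *Stmn2* (0.0024) and *Rnd3* (3.2e-05) were then among those called higher.

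Some of the 65 lower genes were of cell types that the rule removed, so that the choice of cells fixed their direction. Mitosis genes contributed 14 of 23 tested, such as *Tpx2*, a spindle assembly factor with 16.6, 0 and 0 CPM against 302, 279 and 208 CPM. Myoid genes contributed 9 of 10 tested. *Mylpf*, a fast skeletal myosin light chain, had 16.6, 29.3 and 16.4 CPM against 383, 349 and 357 CPM.

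Some glial and blood genes outside the rule were lower as well, with 2 of 5 astrocyte and Bergmann glia markers and 2 of 4 erythroid markers tested, and none of 4 oligodendrocyte markers tested, of which 3 were called lower with the mouse as a block. *Apoe*, a lipid carrier of astrocytes and other glia, fell from 830, 967 and 1278 CPM in the remaining cells to 66.5, 205 and 65.8 CPM (log2 fold change -3.45, SE 0.36, adjusted p = 0.00011), and reached the filter level in both groups. The next 2 genes reached it in all 3 sums of the remaining cells alone, as did *Tpx2* and *Mylpf*, so that the filter favored their direction. *Fabp7*, a radial glial and Bergmann glial fatty acid binding protein, had 83.1, 29.3 and 49.3 CPM against 484, 288 and 864 CPM. In mice 1 and 3 its Barhl1/Mab21l2 sums were above the level too. *Hba-a1*, an alpha globin, was at 33.3, 29.3 and 16.4 CPM against 457, 1249 and 317 CPM.

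Among genes of cell cycle exit, 1 of 15 tested was higher and 1 lower. The lower gene was *Cdkn1c*, which encodes the CDK inhibitor p57, at 99.8, 146 and 543 CPM against 790, 928 and 899 CPM (log2 fold change -1.73, SE 0.39, adjusted p = 0.039). It varied widely among the mice, with mouse 3 highest. Myoid markers, which the rule removed, moved with it (summed at 166, 176 and 197 CPM against 2177, 2120 and 2107 CPM), and their part in this difference was not tested. Against the cycling and the Cntn2/Adcyap1 cells, *Cdkn1c* was not called, at log2 fold changes of 0.84 and 0.017. *Cdkn1a*, the gene for p21, stood at 83.1, 146 and 115 CPM against 248, 345 and 252 CPM, with an adjusted p of 0.057 that fell to 0.0049 with the mouse as a block. *Cdkn2a*, a PRC2-controlled tumor suppressor gene, stood at 183, 146 and 181 CPM against 123, 181 and 84.2 CPM and overlapped (log2 fold change 0.37, SE 0.38, adjusted p = 0.87).

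These calls depended on which mice were included. Without mouse 2, whose Barhl1/Mab21l2 cells held the fewest UMIs, edgeR called 0 of 8135 genes, of which 634 had an unadjusted p under 0.05. It called 3 without mouse 1 and 58 without mouse 3, and DESeq2 called 58 with all mice. *Hoxb8* kept its direction in all 13 alternatives and passed the threshold in 10, *Tshz2* in 8, and *Neurod1* and *Btg2* in 7 each.

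The values on either side of the lower limit were read in the cells that had none of the excluded genes. These numbered 579 with 0 summed UMIs of the 5 genes, 163 with 1, 72 with 2 and 65 with 3 or more. *Hoxb8* stood at 50.6 ± 8.34, 112 ± 31.6, 144 ± 74.1 and 272 ± 70.3 CPM in this order (SD, n = 3 mice). *Ccnd2* stood at 777 ± 148, 1079.6 ± 189.7, 1247 ± 196 and 1633 ± 339 CPM. These means rose at each step, but not in every mouse. *Hoxb8* fell from 99.6 CPM at 1 UMI to 63.2 CPM at 2 UMIs in mouse 3. In mouse 2, from 2 UMIs to 3 or more, *Hoxb8* went from 209 to 200 CPM and *Ccnd2* from 1461 to 1401 CPM. *Btg2*, by contrast, differed little up to 2 UMIs (126 ± 8.38, 98.2 ± 31.6 and 155 ± 57.1 CPM) and reached 445 ± 188 CPM at 3 or more. *Apoe* stood at 2803 ± 1158 CPM in cells with 0 and 1439 ± 1032 CPM in cells with 1, against 117 ± 79.5 and 108 ± 79.6 CPM inside the limit. The means of *Hoxa7* and *Hoxa9* gave no such order. *Hoxa7* stood at 102 ± 30.5, 247 ± 147, 93.2 ± 12.1 and 301 ± 64.2 CPM, and *Hoxa9* at 77.8 ± 21.9, 184 ± 31.1, 94.3 ± 83.1 and 268 ± 114 CPM, so that among the Barhl1/Mab21l2 cells their mean levels were lower in the 72 at the limit than in the 65 above it. *Tubb3* gave no order either, with 656 ± 111, 930 ± 149, 829 ± 424 and 548 ± 130 CPM. *Gap43* stood at 1158 ± 198, 1479 ± 177, 1906 ± 214 and 1172 ± 111 CPM, and in each mouse it was lower in the members with 3 or more UMIs than in those with 2.

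**Figure D2:**
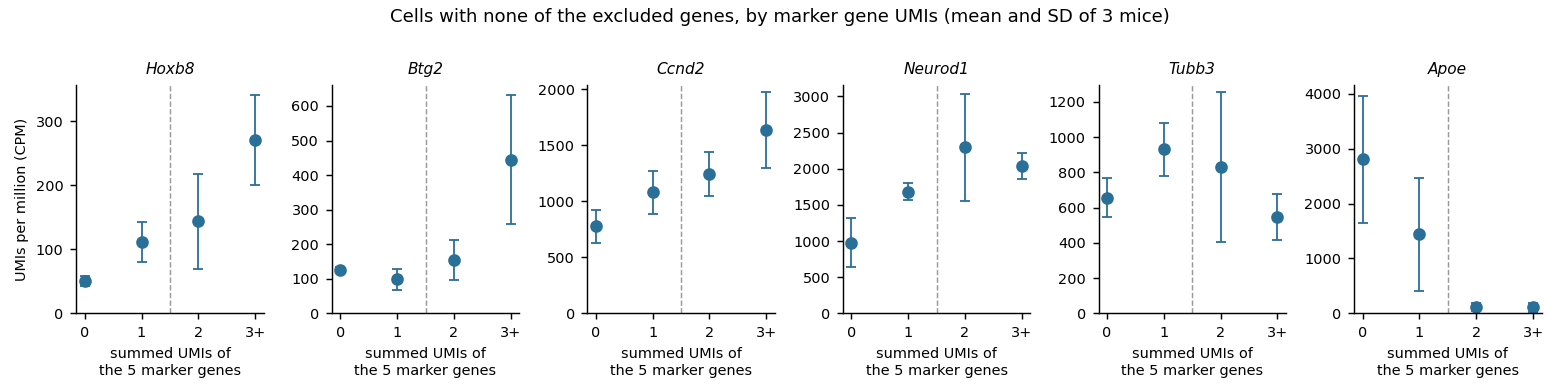
CPM of 6 genes (vertical axes) in kept cells with none of the 13 excluded genes, by the summed UMIs of the 5 marker genes (horizontal axes). Points and bars are the mean and SD of 3 mice, and the dashed line is the limit of the rule, to the right of which lie the Barhl1/Mab21l2 cells. *Hoxb8* stands higher on the right (144 and 272 CPM) than at 0 UMIs (50.6 CPM), and *Apoe* stands lower.

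The next comparison set the Barhl1/Mab21l2 cells beside dividing cells. Cycling cells were 507 kept cells with at least 2 summed UMIs of the 7 cycling genes of the rule and none of its other excluded genes, with a median of 1241, 1145 and 1883 UMIs by mouse. They also held glial RNA, with summed astrocyte and Bergmann glia markers at 1103, 1093 and 1816 CPM against 316, 439 and 280 CPM in the Barhl1/Mab21l2 cells, and in mouse 3 hemoglobin RNA, with erythroid markers at 315, 367 and 4474 CPM. The part of this RNA in the results was not tested. Of 2374 genes tested, 200 (8.42%) were called, 71 (2.99%) higher and 129 (5.43%) lower in the Barhl1/Mab21l2 cells, and with the mouse as a block the numbers were 139 (5.86%) and 189 (7.96%). The filter level was here about 97.4 CPM. It was reached in 1 group alone by 43 of the 71 higher genes and 96 of the 129 lower genes, and in both groups by 28 and 33.

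Of 25 genes of the neuronal cytoskeleton and of neuronal RNA binding, 22 were tested, 12 were higher and 10 were not called. Of the 12, 9 had reached the filter level in both groups and 3 in the Barhl1/Mab21l2 cells alone. *Gap43*, a protein of growing axons, stood at 1480, 1493 and 1595 CPM in the Barhl1/Mab21l2 cells and at 539, 463 and 380 CPM in the cycling cells (log2 fold change 1.72, SE 0.21, adjusted p = 2.3e-05). *Stmn2*, a microtubule regulator of growth cones, stood at 915, 1112 and 1809 CPM against 227, 214 and 300 CPM (log2 fold change 2.36, SE 0.27, adjusted p = 1.1e-05). *Map1b*, a microtubule-associated protein, was at 2312, 1522 and 2335 CPM against 787, 747 and 552 CPM (log2 fold change 1.58, SE 0.22, adjusted p = 8.5e-05). *Tubb3*, the neuronal beta tubulin, was at 549, 498 and 1003 CPM against 195, 166 and 203 CPM (log2 fold change 1.87, SE 0.29, adjusted p = 0.00022). None of these genes overlapped between the groups, and each was called in all 13 alternatives. The alpha tubulin gene *Tuba1a* had an adjusted p of 0.071, and of 1.1e-09 with the mouse as a block.

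Of the granule lineage transcription factors, 20 of 30 were tested and 6 were higher, 4 of them (*Neurod1*, *Sox4*, *Zic1* and *Zic4*) at the filter level in both groups. *Neurod1* stood at 1746, 2693 and 2137 CPM against 590, 588 and 664 CPM (log2 fold change 1.81, SE 0.21, adjusted p = 1.1e-05). *Sox4*, a factor of newly formed neurons, stood at 798, 585 and 970 CPM against 292, 166 and 269 CPM (log2 fold change 1.67, SE 0.28, adjusted p = 0.00042). The others of these 4 were *Zic4* (log2 fold change 1.34) and *Zic1* (0.81). *Myt1l*, a repressor of non-neuronal genes, stood at 166, 263 and 543 CPM against 32.4, 6.92 and 28.6 CPM, but like *Nhlh1* it reached the filter level in the Barhl1/Mab21l2 cells alone. *Pax6* stood at 482, 556 and 427 CPM against 315, 429 and 312 CPM, with overlap between mice and an adjusted p of 0.34.

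Synaptic genes were represented by *Slc17a6*, which encodes the vesicular glutamate transporter of immature granule neurons, at 249, 176 and 263 CPM against 41.3, 27.7 and 28.6 CPM, and by *Snap25*, a vesicle fusion protein, at 116, 176 and 296 CPM against 79.6, 69.2 and 68.6 CPM. Only 3 of the 31 genes of this list had enough counts to be tested, and both that were called reached the filter level in the Barhl1/Mab21l2 cells alone. The other large rises were *Pdzrn3*, an E3 ubiquitin ligase (log2 fold change 3.05), *Apc2*, a neuronal microtubule regulator (2.63), *Stmn4* (2.45), *Scg2*, a secretory granule protein (2.27), *Mllt11* (2.25) and *Chd3*, a chromatin remodeler (2.19), all of which likewise reached the filter level in these cells alone.

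Of 39 *Hox* genes listed, 30 were in the files and 3 had enough counts to be tested against the cycling cells. These reached the filter level in the Barhl1/Mab21l2 cells alone, so that their shared direction was set by the filter and only their values are informative. *Hoxb8* stood at 266, 205 and 164 CPM against 41.3, 13.8 and 20.0 CPM. *Hoxa9* stood at 116, 263 and 164 CPM against 53.1, 27.7 and 28.6 CPM, and *Hoxa7* at 166, 205 and 214 CPM against 64.9, 83.0 and 37.2 CPM. The summed level of the 30 *Hox* genes in the files was 1247, 1171 and 1463 CPM against 351, 374 and 263 CPM. At least 1 *Hox* UMI was found in 58.9% ± 4.56 of the Barhl1/Mab21l2 cells, 24.9% ± 0.799 of the cycling cells and 11.6% ± 7.13 of the reference cells, and in 38.3%, 11.7% and 5.34% at 500 UMIs per cell. In the Cntn2/Adcyap1 cells of the last comparison the share was higher, at 92.4% ± 6.76, and in the remaining cells it was 34.2% ± 3.25. At 500 UMIs per cell these were 79.6% and 23.9%.

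Genes of the cycle fell, as the rule fixed by excluding 7 of them. All 23 mitosis genes tested and 9 of 17 replication genes tested were lower, with a median log2 fold change of -4.30 and -1.35. The summed mitosis list stood at 732, 703 and 247 CPM in the Barhl1/Mab21l2 cells against 9589, 10071 and 11007 CPM. Replication genes outside the rule kept more of their level, at 2328, 2401 and 1184 CPM against 5056, 5091 and 4891 CPM. *Nasp*, a histone chaperone, had 266, 322 and 263 CPM against 772, 706 and 970 CPM (log2 fold change -1.56, SE 0.26, adjusted p = 0.00042).

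The D-type cyclins, unlike the mitotic cyclin genes *Ccnb1*, *Ccnb2* and *Ccna2*, were not called in this comparison. *Ccnd2*, the D-type cyclin that SHH maintains in CGNPs, stood at 1364, 1434 and 1529 CPM against 1798, 1743 and 2586 CPM (log2 fold change -0.51, SE 0.21, adjusted p = 0.16, and 0.0016 with the mouse as a block). *Ccnd1* stood at 815, 322 and 575 CPM against 725, 595 and 521 CPM and overlapped (log2 fold change -0.06, SE 0.28, adjusted p = 0.94). *Sfrp1*, an SHH-induced Wnt inhibitor, was lower, at 233, 146 and 132 CPM against 377, 422 and 335 CPM (log2 fold change -1.12, SE 0.31, adjusted p = 0.027). Only 3 of 14 SHH pathway genes had counts for a test, so the receptor and effector genes were not assessed, and *Gli1* had 33.3, 58.5 and 32.9 CPM against 23.6, 6.92 and 37.2 CPM.

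Of 10 genes of cell cycle exit tested, *Btg2* and *Gadd45g* were called, each at the filter level in all 3 sums only of the group where it was high. *Btg2* stood at 233, 293 and 362 CPM against 144, 83.0 and 109 CPM. *Cdkn2a* stood at 183, 146 and 181 CPM against 162, 221 and 132 CPM (log2 fold change 0.06, SE 0.36, adjusted p = 0.96). *Cdkn1c* went opposite ways among the mice, below the cycling cells in mouse 1 and above them in mouse 3, at 99.8, 146 and 543 CPM against 195, 118 and 140 CPM (log2 fold change 0.84, SE 0.45, adjusted p = 0.33). *Ezh2* stood at 565, 322 and 345 CPM against 643, 678 and 632 CPM, with an adjusted p of 0.16 that became 0.033 with the mouse as a block.

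The count of calls in this comparison was 132, 59 and 107 without mouse 1, 2 and 3, and 51 when each cell was thinned to 500 UMIs before the choice of cells.

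**Figure D3:**
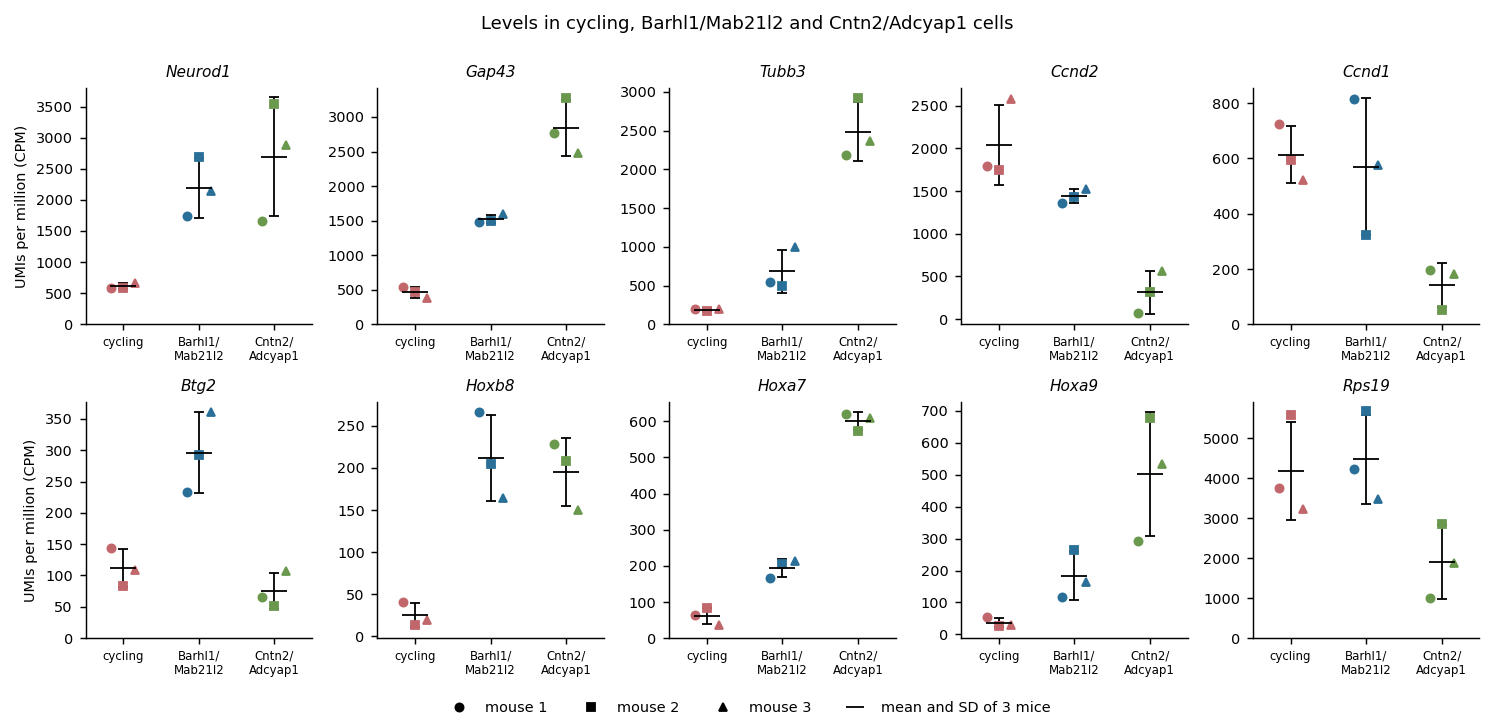
CPM of 10 genes (vertical axes, from 0) in cycling, Barhl1/Mab21l2 and Cntn2/Adcyap1 cells. Symbols are mice, bars the mean and SD of 3 mice. *Gap43*, *Tubb3*, *Hoxa7* and *Hoxa9* stand between the other groups, *Ccnd2* stands closer to the cycling cells, *Hoxb8* closer to the Cntn2/Adcyap1 cells, and *Btg2* above both.

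The last comparison placed the Barhl1/Mab21l2 cells beside cells further along the lineage. Cntn2/Adcyap1 cells were 92 kept cells with at least 2 summed UMIs of *Cntn2*, an axonal adhesion protein, and *Adcyap1*, a neuropeptide gene, and none of the other excluded genes. They numbered 23, 17 and 52 by mouse, with a median of 1172, 1015 and 1602.5 UMIs. Of 1015 genes tested, 60 (5.91%) were called, 21 (2.07%) higher and 39 (3.84%) lower in the Barhl1/Mab21l2 cells. With the mouse as a block, 54 (5.32%) were higher and 70 (6.90%) lower. The filter level was about 212 CPM here, reached in both groups by 14 of the 21 higher and 18 of the 39 lower genes.

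Some neuronal genes were lower than in the later cells. Of 22 cytoskeletal and RNA-binding genes tested, 10 were lower and 12 not called, and 8 of the 10 had reached the filter level in both groups. *Tubb3* stood at 549, 498 and 1003 CPM against 2185, 2913 and 2362 CPM (log2 fold change -1.83, SE 0.28, adjusted p = 0.0011). *Dpysl3*, a growth cone protein, was at 233, 381 and 510 CPM against 1141, 1405 and 1293 CPM (log2 fold change -1.79, SE 0.30, adjusted p = 0.0031). *Elavl4*, a neuronal RNA-binding protein, stood at 200, 205 and 296 CPM against 717, 520 and 951 CPM. All its Cntn2/Adcyap1 sums reached the filter level, but of its Barhl1/Mab21l2 sums only the highest did, so that the filter favored its direction. *Gap43* stood at 1480, 1493 and 1595 CPM against 2772, 3278 and 2480 CPM (log2 fold change -0.91, SE 0.22, adjusted p = 0.024). With the cycling comparison, this gave an order for *Gap43* and *Tubb3* in which each neighbouring pair of groups differed without overlap.

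Several other lower genes did not reach the filter level in all 3 Barhl1/Mab21l2 sums, so that the filter could favor their direction. They were *Crabp1*, a retinoic acid binding protein, at 150, 58.5 and 16.4 CPM against 587, 832 and 342 CPM, *Nefl*, a neurofilament subunit (log2 fold change -1.76), *Rufy3*, a regulator of neuronal polarity (-1.64), *Ctxn1* (-1.63), *Sema6a*, a guidance protein of migrating granule cells (-1.61), *Dcx*, a microtubule protein of migrating neurons (-1.46), and *BC005764* (-2.04). *Nfib* and *Nfix*, nuclear factor I genes of maturing granule neurons, were lower by log2 fold changes of -1.04 (SE 0.23, adjusted p = 0.01) and -0.92 (SE 0.26, adjusted p = 0.042). *Nhlh1* was the only other of the 17 granule lineage factors tested that was called. It reached the filter level in all 3 sums of the Cntn2/Adcyap1 cells alone, but also in the Barhl1/Mab21l2 cells of mice 1 and 2. *Neurod1* did not differ beyond its spread, at 1746, 2693 and 2137 CPM against 1663, 3538 and 2886 CPM (log2 fold change -0.33, SE 0.25, adjusted p = 0.50).

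Genes higher than in the later cells included both D-type cyclin genes, *Btg2*, *Zfp36l1*, *Selm* and *Mdk*. All of them reached the filter level in the Barhl1/Mab21l2 cells alone. For *Ccnd1*, *Btg2*, *Zfp36l1* and *Selm* no Cntn2/Adcyap1 sum was at the level, so that the filter largely set their direction. Some Cntn2/Adcyap1 sums of *Ccnd2* and *Mdk* were at it, so that the filter favored their direction. *Ccnd2* stood at 1364, 1434 and 1529 CPM against 65.2, 312 and 566 CPM. *Ccnd1* stood at 815, 322 and 575 CPM against 196, 52.0 and 182 CPM, and *Btg2* at 233, 293 and 362 CPM against 65.2, 52.0 and 107 CPM. These cyclins were the only genes of the SHH list with enough counts. *Zfp36l1*, an mRNA decay factor, stood at 499, 293 and 230 CPM against 163, 0 and 32.1 CPM, and *Selm*, a selenoprotein gene, at 665, 498 and 280 CPM against 97.8, 156 and 96.2 CPM. *Mdk* encodes a heparin-binding growth factor.

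Ribosomal protein genes made up much of the rest. This list was chosen after the values were seen: of 79 genes in the files 44 were tested, 12 were higher and none lower, and 24 were higher with the mouse as a block. *Rps19* stood at 4241, 5679 and 3486 CPM against 1011, 2861 and 1870 CPM (log2 fold change 1.22, SE 0.27, adjusted p = 0.011), and *Rpl32* at 1962, 1961 and 1743 CPM against 587, 1197 and 866 CPM (log2 fold change 1.10, SE 0.26, adjusted p = 0.017). The summed level of the 79 genes was 50853, 60950 and 53552 CPM, against 21783, 33349 and 33924 CPM in the Cntn2/Adcyap1 cells and 45721, 58476 and 51944 CPM in the cycling cells, which it overlapped. Ribosomal protein genes have many near-identical pseudogene copies, so the split of reads among them is uncertain.

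**Figure D4:**
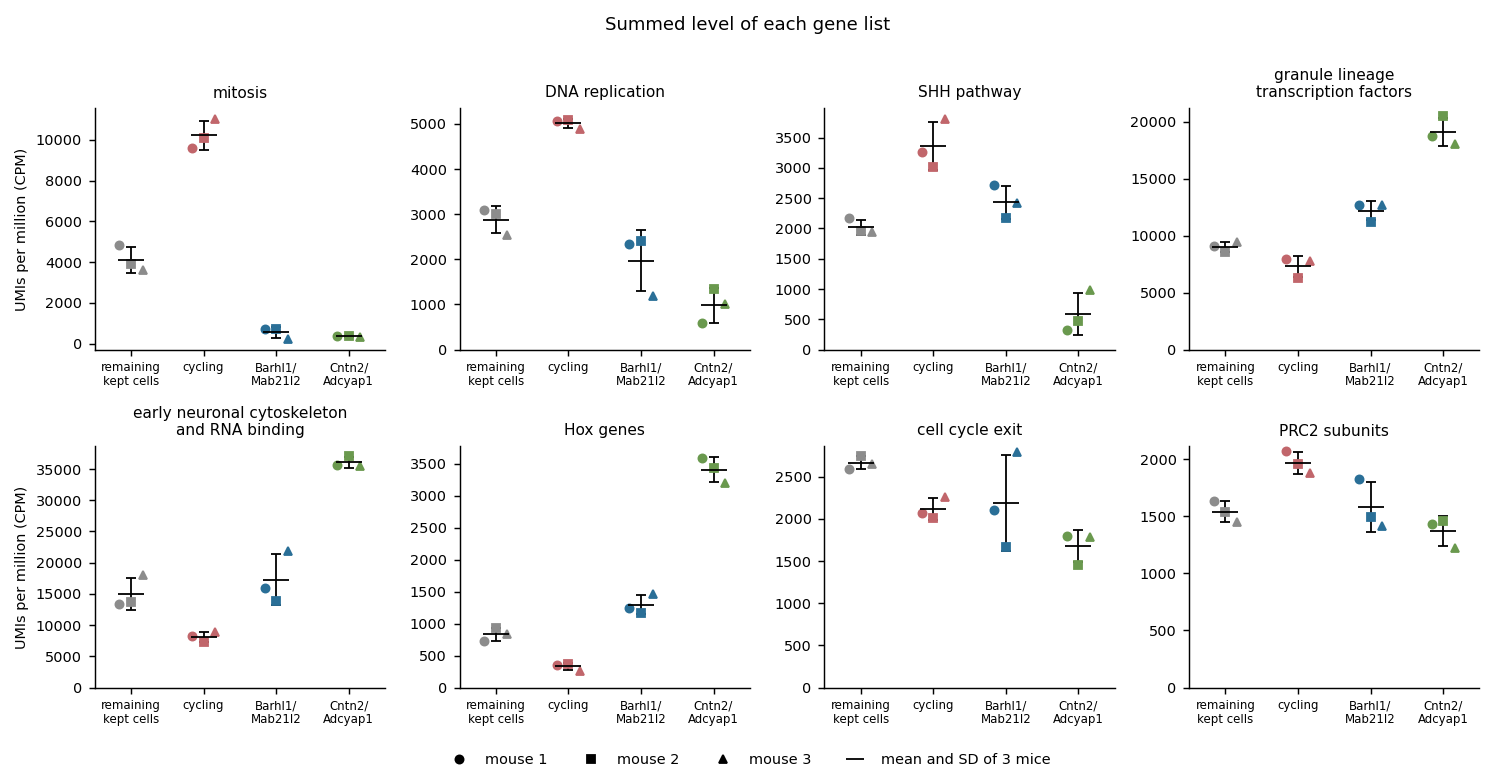
Summed CPM of 8 gene lists (vertical axes) in the remaining kept cells, cycling, Barhl1/Mab21l2 and Cntn2/Adcyap1 cells. Symbols are mice, bars the mean and SD of 3 mice. The mitosis list is low in the Barhl1/Mab21l2 (560 ± 272 CPM) and Cntn2/Adcyap1 cells (351 ± 17.6 CPM), both chosen with 0 UMIs of the cycling genes. The replication list stands at 1971 ± 683 CPM in the former, 981 ± 383 CPM in the latter and 5013 ± 107 CPM in cycling cells. In the Barhl1/Mab21l2 cells the SHH list (2431 ± 272 CPM) lies between those of the Cntn2/Adcyap1 (593 ± 346 CPM) and cycling cells (3365 ± 401 CPM). Their *Hox* list (1294 ± 152 CPM) lies below that of the Cntn2/Adcyap1 cells (3405 ± 197 CPM).

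For the 4 *Hox* genes tested in this comparison, all Cntn2/Adcyap1 sums reached the filter level, but not all Barhl1/Mab21l2 sums did. For *Hoxb7* and *Hoxc9* no Barhl1/Mab21l2 sum was at the level, so that the filter largely set their direction. For *Hoxa7* and *Hoxa9* the highest Barhl1/Mab21l2 sum, at 214 and 263 CPM, was above it, so that the filter favored their direction. Those called lower in the Barhl1/Mab21l2 cells were *Hoxa7*, at 166, 205 and 214 CPM against 620, 572 and 609 CPM, *Hoxa9*, at 116, 263 and 164 CPM against 293, 676 and 534 CPM and *Hoxb7*, at 66.5, 87.8 and 148 CPM against 424, 624 and 235 CPM. *Hoxc9*, at 83.1, 146 and 181 CPM against 293, 312 and 299 CPM, had an adjusted p of 0.11. *Hoxb8* had too few counts for the test, and stood at 266, 205 and 164 CPM against 228, 208 and 150 CPM, so its levels overlapped those of the later cells.

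Ratios of *Hox* genes within a cell group, which do not depend on scaling, are given as a description only, since they come from the same counts and were chosen after the values were seen. The ratio of *Hoxa7* to *Hoxb8* UMIs was 0.625, 1.0 and 1.3 in the Barhl1/Mab21l2 cells of mice 1, 2 and 3 (10 to 16, 7 to 7 and 13 to 10 UMIs). In the Cntn2/Adcyap1 cells it was 2.71, 2.75 and 4.07 (19 to 7, 11 to 4 and 57 to 14 UMIs), without overlap. The ratio of *Hoxb7* to *Hoxb8* was 0.25, 0.429 and 0.9 against 1.86, 3.0 and 1.57, also without overlap, while that of *Hoxa9* to *Hoxb8*, at 0.438, 1.29 and 1.0 against 1.29, 3.25 and 3.57, overlapped. In the cycling cells the ratio of *Hoxb7* to *Hoxb8*, at 0.357, 2.5 and 0.571, overlapped that of the Barhl1/Mab21l2 cells. The cycling ratios of *Hoxa7* and *Hoxa9* to *Hoxb8* were 1.57, 6.0 and 1.86, and 1.29, 2.0 and 1.43. They rest on 14, 2 and 7 *Hoxb8* UMIs. *Hoxb8*, at 33 UMIs, was the *Hox* gene with the most UMIs in the Barhl1/Mab21l2 cells, ahead of *Hoxa7* (30), *Hoxa9* (26), *Hoxc9* (21) and *Hoxb7* (16). These neighbours do not differ beyond the spread of the mice, and 2 of the 30 *Hox* genes in the files, *Hoxa3* and *Hoxb3*, had no UMI in these cells.

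Levels were also read by which of the 5 marker genes a cell carried, on few cells in each case. *Neurod1* stood at 1520 ± 261 CPM in the 72 cells with *Barhl1*, at 2591 ± 586 CPM in the 57 with *Mab21l2* and at 3489 ± 819 CPM in the 40 with *Ebf3*, the groups sharing cells. It stood at 1751 ± 295 CPM in the 63 with *Mfap4* and at 739 ± 1157 CPM in the 14 with *Chodl*, which held 10 of its UMIs. *Hoxb8* stood at 252 ± 92.7, 203 ± 106, 296 ± 133, 200.4 ± 50.9 and 311 ± 139 CPM in this order. These are descriptions of overlapping sets of cells from 3 mice, with no test.

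The comparison with the Cntn2/Adcyap1 cells rests on 30666, 19221 and 93563 UMIs in those cells. In edgeR it gave 9 calls without mouse 1, 0 without mouse 2 (160 of 1398 genes at an unadjusted p under 0.05) and 76 without mouse 3, and in DESeq2 with all mice 23.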

How the data were processed

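The authors deposited raw UMI counts per gene and barcode, without normalization, for 16181 genes in 1401, 936 and 1144 barcodes. The submitters' processing notes name STAR and the build mm10. The annotation and the counting tool are not given in the sources used here. Kept cells held 1074182, 576250 and 1651819 UMIs by mouse, and CPM are UMIs per 1000000 UMIs of a group. No doublet caller was run.

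UMIs were summed per mouse and cell group and tested with edgeR 4.0.16 in R 4.3.3 (TMM, filterByExpr, quasi-likelihood test, Benjamini-Hochberg over all genes tested outside the 18 of the rule), after a check on simulated data. Sums and descriptive values were computed in Python 3.11.15. Each SE was obtained as the size of the log2 fold change over the root of its F statistic. The p-values measure the spread among 3 mice. DESeq2 1.42.0 and 12 other settings were tried per comparison. Sums of 1 mouse share a library, so the mouse was also fitted as a block, and the deviations of log2 CPM from the group means correlated across genes within each mouse at r from 0.114 to 0.331. Genes named were, per comparison, up to 10 called rises and 10 called falls of at least 100 CPM that held in 3 of 3 mice, a fixed list of granule, cell cycle, *Hox* and PRC2 genes, and the 4 highest members of each gene list. Some further list members and the genes under the other observations were added for their values. The cells, lists and tests were chosen with earlier results of these data known. Positions and exons are from GENCODE M21 (GRCm38), promoters from RefSeq.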

Additional observations from a re-analysis of the deposited data

How the results depend on the processing

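With the mouse as a block, which pairs the sums of a library, 166, 328 and 124 genes were called against the remaining, cycling and Cntn2/Adcyap1 cells, where the fit without it called 69, 200 and 60. Of 126 results for genes described with values in the text, 14 passed the threshold only with the block and none was lost or changed direction. Of the other genes that the rule named, *Rbfox3*, *Hspa5* and *Hbb-bs* against the Cntn2/Adcyap1 cells and *Nfib* against the remaining cells, none of them called, changed sign with it. Without the filter on low counts the numbers were 169, 324 and 23, and DESeq2 gave 23 against the Cntn2/Adcyap1 cells. With at least 1000 UMIs per cell, 37 and 131 genes were called against the remaining and cycling cells. Thinning each cell to 500 UMIs left 10, 51 and 9. Leaving out 1 mouse gave 0 to 58, 59 to 132 and 0 to 76 calls. Fewer cells, UMIs or mice entered the last 3 of these settings, and the cause of the other changes was not tested. RLE size factors and the upper limits on UMIs and genes changed no call of a gene described with values in the text, though under the upper limits 4 of the 126 results (*Apc2*, *Pdzrn3*, *Scg2* and *Eed*) had too few counts for a test.

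The share of Barhl1/Mab21l2 cells was 2.69% when 3 summed UMIs were required, 3.68% with at least 2 different marker genes, 3.98% after thinning, and 5.39% to 6.59% when 1 mouse was left out. Among the called genes of the 3 comparisons, the log2 fold change of *Rpl13* against the Cntn2/Adcyap1 cells changed sign, from 0.94 to -0.043 after thinning. Of the genes with values in the text, 4 that were not called in the comparison concerned changed sign. *Ezh2* against the remaining cells became 0.073 with at least 1000 UMIs per cell and 0.14 after thinning, and ranged from -0.36 to 0.013 when 1 mouse was left out, or from -0.21 to 0.48 against the Cntn2/Adcyap1 cells. *Cdkn2a* became -0.21 against the remaining cells with at least 1000 UMIs, and against the cycling cells -0.20 without the count filter, -0.46 with at least 1000 UMIs and -0.16 to 0.27 when 1 mouse was left out. *Ccnd1* against the cycling cells became 0.31 with 3 summed UMIs, 0.012 with 2 marker genes and 0.48 after thinning, and ranged from -0.26 to 0.12 when 1 mouse was left out, as did *Cdkn1c* from -0.52 to 1.51. Leaving out the cell with fibroblast RNA, chosen after seeing the data, gave 87, 206 and 56 calls. Genes below about 100 CPM rest on few UMIs here, so that no difference in most *Hox*, SHH pathway and synaptic genes could be assessed.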

Other observations

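Some genes outside the rule for naming stood higher in the Barhl1/Mab21l2 cells than in the cycling cells. They were picked after their values were seen. *Kif5c*, a kinesin motor of axonal transport, reached the filter level in both groups, at 349, 322 and 329 CPM against 106, 145 and 143 CPM (log2 fold change 1.35, SE 0.30, adjusted p = 0.0054). The 4 other genes reached it in the Barhl1/Mab21l2 cells alone, so that the filter set their direction and only their values are given. *Kif5a*, a related kinesin, stood at 150, 146 and 132 CPM against 35.4, 13.8 and 40.0 CPM. *Srrm4*, a neuronal splicing regulator, stood at 233, 146 and 247 CPM against 59.0, 83.0 and 62.9 CPM, and *Cacna2d1*, a calcium channel subunit, at 366, 263 and 312 CPM against 85.5, 34.6 and 80.1 CPM.

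*Kdm6b*, which encodes a demethylase of lysine 27 on histone H3, the residue that PRC2 methylates, stood at 249, 146 and 247 CPM against 56.0, 89.9 and 65.8 CPM in the cycling cells. Against the remaining cells, at 89.7, 109 and 124 CPM, it had an adjusted p of 0.24.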
